A study of Homo sapiens with 2 samples.

Results

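The ISG15 and FAT10 ubiquitin-like system was followed through its 7 member genes: the modifiers ISG15 and UBD (the gene of FAT10), the activating enzyme UBA7, the conjugating enzyme UBE2L6, the ligases HERC5 and HERC6, and the protease USP18. The members were chosen by symbol, not by their values, and make up 7 of the 36601 genes in the count matrices. The samples were colon organoids of 1383D6, a human line of induced pluripotent stem (iPS) cells, and the series presents them as a model of ulcerative colitis. The CNT organoids received no added cytokines, and the 3CK organoids were kept for 8 days with 3 of them: IL-1β, IFN-γ and TNF-α. Both were made the same way, with Activin A and FGF2 followed by EGF, Forskolin, PD98059 and 5-Aza-2'-Deoxycytidine among other agents, so the DNA-demethylating agent was shared by the untreated organoids. Each group was 1 library of 10x Genomics 3' single-cell RNA sequencing from 1 cell line, with no replicate. Differences below therefore have no replicate error and no test, and all intervals are 95% intervals that cover counting error only.

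Ubiquitin-like modifiers are small proteins that are joined to other proteins by a relay of an activating enzyme (E1), a conjugating enzyme (E2) and a ligase (E3), and are removed again by proteases. ISG15 is a modifier with a pair of ubiquitin-like domains that is made in response to interferons, which also acts as a free and a secreted protein. Its relay runs through UBA7, UBE2L6 and, in human cells, mainly HERC5, and USP18 removes it and also restrains signalling at the type I interferon receptor. FAT10, the product of UBD, is a modifier known to be induced by TNF-α and IFN-γ, is conjugated through UBA6 and UBE2Z, and carries proteins to the proteasome. UBD is known for high levels in inflamed gut epithelium and in gastrointestinal tumours.

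The CNT library held 3257 barcodes and the 3CK library 1641, with none in common, and 2487 and 1398 were kept as cells. The kept cells held 101831571 unique molecular identifiers (UMIs, each a counted transcript molecule) in CNT and 91860414 in 3CK. Epithelial cells, with at least 2 EPCAM UMIs per 10000, numbered 1660 in CNT (66.7%) and 1016 in 3CK (72.7%). Mesenchymal cells, with at least 5 UMIs of COL1A1, COL1A2 and COL3A1 per 10000 and under 1 of EPCAM, numbered 574 in CNT (23.1%, 21.4 to 24.8) and 124 in 3CK (8.87%, 7.43 to 10.5). The other kept cells, 253 in CNT and 258 in 3CK, were in neither class. All-cell sums therefore mix the classes in different proportions. The median epithelial cell had 37785 UMIs in CNT against 72198 in 3CK, and the median mesenchymal cell 23450.5 against 65363. In 3CK, 64 kept cells with under 1 EPCAM UMI per 10000 lay within a factor of 2 of the collagen limit. That count takes cells on both sides of the limit, so it is not a part of the 124. The epithelial cells carried CDX2, a transcription factor of intestinal epithelium, at 80.6 CPM (UMIs scaled to a common total) in CNT and 83.3 in 3CK. They also carried the hepatic gene TTR at 64857 CPM in CNT and 19491 in 3CK. PTPRC, the defining gene of leukocytes, was at 0.236 and 0.0856 CPM in CNT and 3CK epithelial cells and at 0.560 and 3.62 CPM in mesenchymal cells. The 8 leukocyte markers summed to 69.3 CPM in CNT and 210.7 CPM in 3CK mesenchymal cells, with CD3E and MS4A1 at 0 in the latter, and to 93.9 and 114.0 CPM in epithelial cells, and their part in the differences below was not tested.

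Positions are those of GENCODE 44 on GRCh38. ISG15 (ENSG00000187608) is at chr1:1001138-1014540, UBD (ENSG00000213886) at chr6:29555515-29559732, UBA7 (ENSG00000182179) at chr3:49805209-49813953 and UBE2L6 (ENSG00000156587) at chr11:57551656-57568284. HERC6 (ENSG00000138642) at chr4:88378739-88443097 and HERC5 (ENSG00000138646) at chr4:88457119-88506163 are neighbours on the plus strand, 14021 bases apart. USP18 (ENSG00000184979) is at chr22:18150118-18177397, and its pseudogene copy USP41 on the same chromosome had 3 UMIs in CNT and 12 in 3CK. UBD overlaps GABBR1 on the same strand, and GABBR1 itself had 5.93 CPM in CNT and a log2 ratio (3CK over CNT) of 0.02. A long noncoding RNA on the opposite strand overlaps ISG15, and the strand setting of the counting is not given in the sources used here.

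Promoter windows of 250 bases upstream of the transcription start were available from RefSeq (GRCh38.p14) for 5 of the 7 members. The windows below are those that hold the letters of interferon or NF-κB response elements. Both strands were searched for 2 motifs described here. The first was GAAA, any 2 bases (NN) and again GAAA, the core of the interferon-stimulated response element (ISRE), a binding element of IRF1 and other interferon-responsive factors. The second was the kappa-B consensus, bound by NF-κB. Of all 35116 promoter windows of this length, 3.02% held the first and 5.21% the second. The ISG15 window (chr1:1013247-1013496, plus strand) held 2 overlapping matches of the ISRE core, from -113 to -104 and from -107 to -98 relative to the start. The UBD window (chr6:29559733-29559982, minus strand) held 1 match of the kappa-B consensus, from -53 to -44. The HERC5 window (chr4:88456869-88457118, plus strand) held 3 matches of the ISRE core on the opposite strand, from -125 to -116, from -119 to -110 and from -74 to -65, of which the first pair overlap. Capitals mark the matches, read 5′ to 3′.
ISG15: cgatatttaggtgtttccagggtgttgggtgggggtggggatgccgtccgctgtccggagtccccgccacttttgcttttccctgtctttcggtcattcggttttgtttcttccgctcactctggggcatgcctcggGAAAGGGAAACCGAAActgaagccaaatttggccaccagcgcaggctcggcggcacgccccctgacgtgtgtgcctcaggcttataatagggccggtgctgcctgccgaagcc
UBD: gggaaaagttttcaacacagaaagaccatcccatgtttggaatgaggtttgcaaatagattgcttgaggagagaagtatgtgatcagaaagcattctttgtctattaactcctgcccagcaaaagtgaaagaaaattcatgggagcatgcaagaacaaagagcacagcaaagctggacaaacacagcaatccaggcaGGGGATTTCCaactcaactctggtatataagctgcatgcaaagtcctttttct
HERC5: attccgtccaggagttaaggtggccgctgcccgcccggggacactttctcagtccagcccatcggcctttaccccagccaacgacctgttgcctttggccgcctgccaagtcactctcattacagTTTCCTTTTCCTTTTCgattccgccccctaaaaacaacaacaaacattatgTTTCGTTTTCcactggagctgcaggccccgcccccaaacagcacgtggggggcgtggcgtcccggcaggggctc
The HERC6 window and both UBE2L6 windows held none of these letters. A match is a description of the sequence and not evidence of binding.

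In all kept cells, the 7 members were each higher in 3CK than in CNT. In these sums, which mix the classes, the lowest fold was that of the E1, UBA7, and the highest that of UBD. All 7 passed a minimum of 1 CPM in either library, and all 7 had a log2 ratio of at least 1, against 6.96% of the 17523 genes above that minimum. A log2 ratio of at least 3 was reached by 5 of 7, against 1.5% of genes. The median log2 ratio of the members was 3.42, and that of all genes tested was -0.05.

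Both modifiers were higher in 3CK. ISG15 had 40734 UMIs in CNT against 442575 in 3CK, or 400.0 and 4818 CPM, a 12.0-fold difference (11.9 to 12.2). ISG15 was thus already well detected in the organoids without added cytokines. UBD had 260 UMIs in CNT against 5772 in 3CK, or 2.55 and 62.8 CPM, a 24.6-fold difference (21.7 to 28.0) and the largest of the members. Nearly all UBD transcripts of the series were thus in the 3CK library.

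The enzymes of the ISG15 relay were each higher in 3CK, by unequal amounts. UBA7, the E1, had 110 UMIs in CNT against 258 in 3CK, or 1.08 and 2.81 CPM (log2 ratio 1.38, 1.05 to 1.71). UBE2L6, the E2, had 1847 and 25752 UMIs, or 18.1 and 280.3 CPM (log2 ratio 3.95, 3.88 to 4.02). The difference of the E2 was thus larger than that of the E1 by far more than counting error. The size of the gap depends on the mix of classes, as 84 of the 110 CNT UMIs of UBA7 were in mesenchymal cells. Within epithelial cells the log2 ratios were 3.29 for UBA7 and 4.95 for UBE2L6, and within mesenchymal cells 0.21 and 2.58. The log2 ratio of UBA7 was 0.81 when each cell was given equal weight in place of summing UMIs, so its place above 1 depends on the weighting.

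Of the 2 HERC ligases, HERC6 differed more than HERC5. HERC5, the main human ISG15 ligase, had 605 UMIs in CNT against 2045 in 3CK, or 5.94 and 22.3 CPM (log2 ratio 1.91, 1.77 to 2.04). HERC6, its neighbour and close relative, had 571 and 4142 UMIs, or 5.61 and 45.1 CPM (log2 ratio 3.01, 2.88 to 3.14). Their intervals do not overlap. USP18, the ISG15 protease, had 537 UMIs in CNT against 5197 in 3CK, or 5.27 and 56.6 CPM (log2 ratio 3.42, 3.29 to 3.55). The ratio of the protease was thus close to that of its modifier, 3.59 (3.58 to 3.60).

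The next question was whether the members differed alike in epithelial and mesenchymal cells. All 7 had a log2 ratio of at least 1 in epithelial cells, against 8.48% of 16809 genes, and 5 of 7 in mesenchymal cells, against 6.05% of 17353 genes. At least 3 was reached by 6 of 7 in epithelial cells (1.82% of genes) and by 1 of 7, UBD, in mesenchymal cells (1.27%). The members' median was 3.41 in epithelial cells beside 0.01 for all genes, and 2.58 in mesenchymal cells beside -0.21 for all genes.

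**Figure D1:**
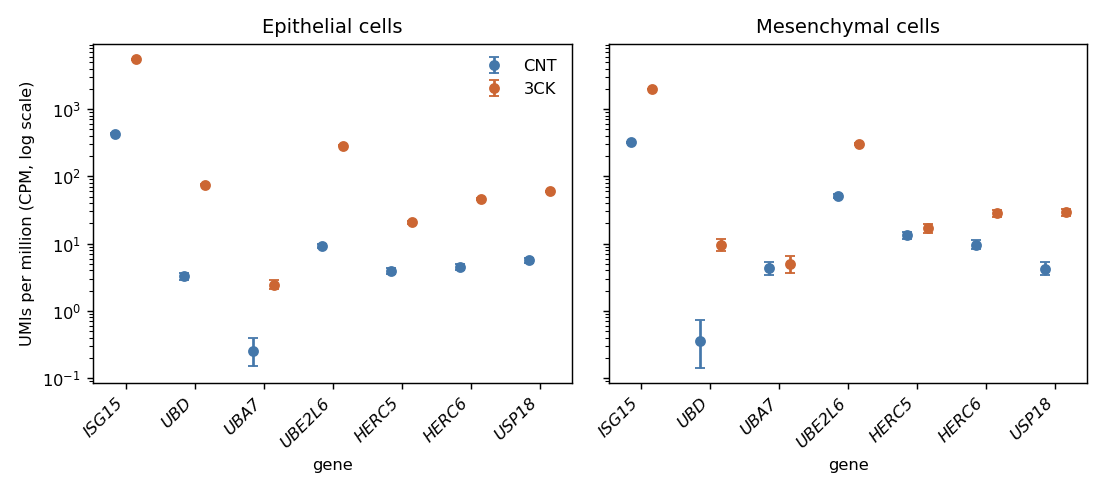
Level of each member in CPM (log scale) in epithelial (left) and mesenchymal (right) cells of the CNT and 3CK libraries, as sums over cells; bars are 95% Poisson intervals. In epithelial cells every 3CK point lies above its CNT point, while for UBA7 and HERC5 in mesenchymal cells the intervals of the 2 libraries overlap.

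In epithelial cells the E2 had the largest difference of the 7. UBE2L6 had 705 UMIs in CNT against 20032 in 3CK, or 9.26 and 285.7 CPM, a 30.9-fold difference (28.6 to 33.3). UBD had 3.27 CPM in CNT and 75.1 in 3CK (log2 ratio 4.52, 4.34 to 4.71). ISG15 had 430.2 and 5457 CPM (log2 ratio 3.67, 3.65 to 3.68). These 3 genes are a conjugating enzyme and both modifiers, so the modifiers and the E2 led the epithelial difference.

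The remaining epithelial enzymes had smaller ratios, all of at least 2.41. USP18 had 5.62 CPM in CNT and 59.6 in 3CK (log2 ratio 3.41), and HERC6 had 4.53 and 45.4 CPM (3.33). HERC5 had 3.91 and 20.8 CPM (log2 ratio 2.41, 2.23 to 2.60). UBA7 was close to absent from untreated epithelium, with 19 UMIs in 1660 CNT cells and 171 in 1016 3CK cells, or 0.249 and 2.44 CPM (log2 ratio 3.29, 2.60 to 4.06).

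In mesenchymal cells the E1 and HERC5 had the smallest ratios. UBA7 had 84 UMIs in CNT against 45 in 3CK there, or 4.28 and 4.94 CPM, and its log2 ratio of 0.21 had an interval that spanned 0 (-0.35 to 0.75). HERC5 had 13.4 CPM in CNT and 16.9 in 3CK (log2 ratio 0.34, 0.04 to 0.63). Both values depend on how cells are weighted: with each cell of equal weight the log2 ratios were 1.04 for UBA7 and 1.25 for HERC5. HERC6 had 9.67 and 28.2 CPM (log2 ratio 1.54, 1.27 to 1.82). Kept cells in neither class had larger ratios of UBA7 and HERC5, in barcodes with at least 10000 UMIs. HERC5 there was at 7.20 CPM in CNT and 34.0 in 3CK (log2 ratio 2.24, 1.78 to 2.74). UBA7 there had 6 and 42 UMIs (log2 ratio 1.69, 0.45 to 3.21).

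The other mesenchymal ratios were larger. ISG15 had 318.9 CPM in CNT and 1990 in 3CK (log2 ratio 2.64, 2.60 to 2.68). UBE2L6 had 50.7 and 304.3 CPM (2.58), and USP18 had 4.22 and 29.1 CPM (2.78). UBD had 7 UMIs in CNT against 87 in 3CK, or 0.356 and 9.54 CPM, and its log2 ratio of 4.74 has a wide interval (3.64 to 6.10). It was 7.27 with each cell of equal weight.

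**Figure D2:**
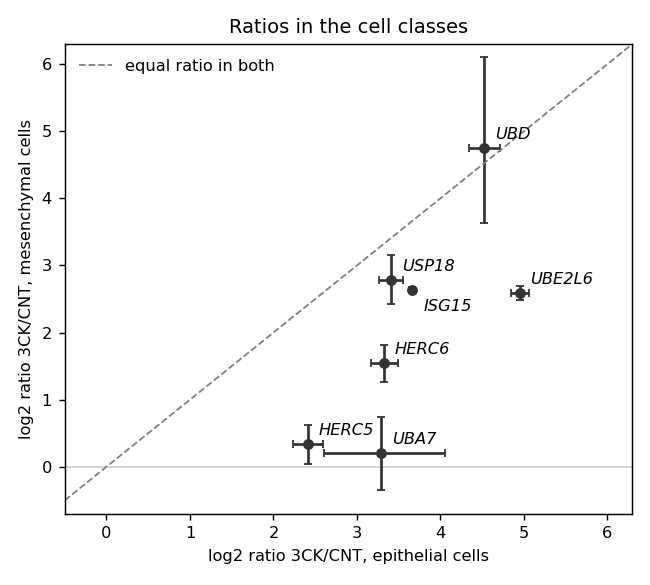
Log2 ratio of 3CK over CNT in mesenchymal cells (y axis) against epithelial cells (x axis) for the 7 members, with 95% counting intervals; the dashed line marks equal ratios. UBD lies near the line, and the other 6 lie below it, with UBA7 and HERC5 lowest on the mesenchymal axis.

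The difference between the classes was taken as the epithelial minus the mesenchymal log2 ratio. It was above 0 for 6 of 7 members, against 62.8% of the 15496 genes that could be compared, and at least 1 for 5 of 7, against 15.8% of genes. The median of the members was 1.78 beside 0.21 for all genes. It was largest for UBA7 (3.08, 2.21 to 4.03), followed by UBE2L6 (2.36, 2.21 to 2.52) and HERC5 (2.08, 1.73 to 2.43). The intervals of UBA7 and UBE2L6 overlap, as do those of UBE2L6 and HERC5. HERC6 (1.78, 1.46 to 2.10), ISG15 (1.02, 0.98 to 1.07) and USP18 (0.62, 0.22 to 1.01) came next, and UBD had -0.22 (-1.59 to 0.90). No member was at -1 or less, against 6.18% of genes. With each cell of equal weight the median was 0.88, the HERC5 difference 0.55 and the USP18 difference -0.29, which is a change of sign. The ISG15 difference was below 1 under 4 alternatives, down to 0.88.

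For 4 enzymes the class difference came with unequal levels before treatment. In CNT, UBA7 in mesenchymal cells was at 17.1 times its epithelial level, UBE2L6 at 5.48 times, HERC5 at 3.42 times and HERC6 at 2.14 times. In 3CK these 4 ratios were 2.02, 1.06, 0.811 and 0.621. UBE2L6 thus stood at nearly the same level in both classes after cytokines, at 285.7 CPM in epithelial and 304.3 CPM in mesenchymal cells. ISG15 went the other way, with a mesenchymal level of 74.1% of the epithelial one in CNT and 36.5% in 3CK. USP18 was at 75.2% in CNT and 48.8% in 3CK.

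UBD was the member most restricted to epithelial cells in both libraries. Its mesenchymal level was 10.9% of the epithelial one in CNT and 12.7% in 3CK. The same quantity for other genes of the epithelium in 3CK was 1.22% for TTR, 3.01% for the adhesion protein CDH1 and 1.55 to 4.20% for the tight-junction proteins CLDN3, CLDN4 and CLDN7. It was 33.2% for the transcription factor ELF3 and 42.8% for CDX2. RNA from lysed epithelial cells that enters other droplets would give each gene a like percentage, and its part in the mesenchymal UBD value was not tested.

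Shares of cells with a UMI were compared after thinning of every cell to 5000 UMIs, in 1062 CNT and 776 3CK epithelial cells and 320 and 107 mesenchymal cells. Shallower cells left out numbered 598, 240, 254 and 17.

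**Figure D3:**
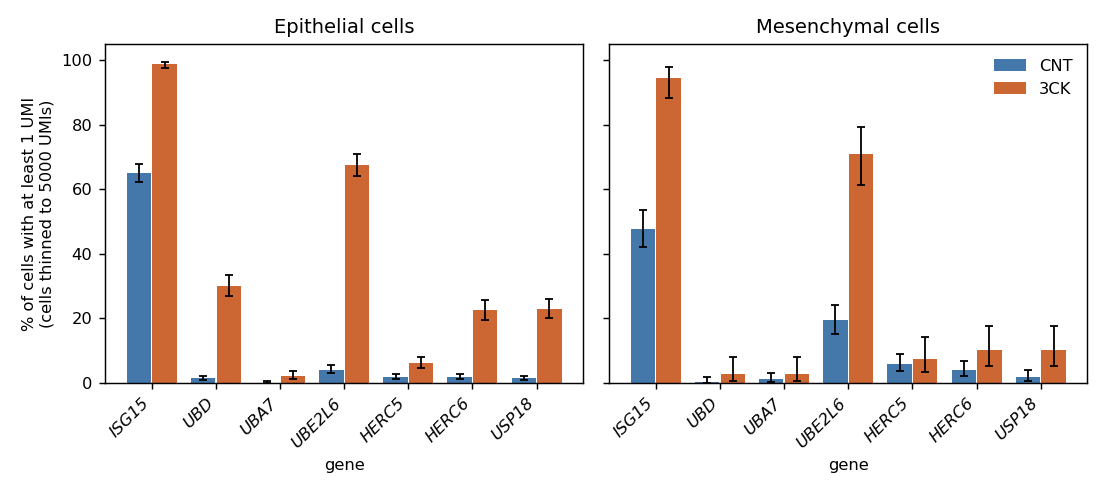
Percentage of cells with at least 1 UMI of each member after thinning to 5000 UMIs per cell, in epithelial (left) and mesenchymal (right) cells of CNT and 3CK; bars start at 0 and error bars are exact binomial 95% intervals. ISG15 is near the top in 3CK in both classes, and UBD reaches 30.2% in epithelial and 2.80% in mesenchymal 3CK cells.

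ISG15 was seen in 65.1% of CNT and 98.7% of 3CK epithelial cells, and the median epithelial cell held 1 and 20 of its UMIs per 5000. In mesenchymal cells the ISG15 shares were 47.8% and 94.4%, with medians of 0 and 7 UMIs. Genes of the epithelium were also seen in mesenchymal cells at that depth, TTR in 99.1% of CNT and 68.2% of 3CK cells and the hepatic apolipoprotein APOA2 in 47.8% and 9.35%. The CNT mesenchymal share of ISG15 was no higher than these. By summed level, mesenchymal ISG15 was at 74.1% and 36.5% of its epithelial level in CNT and 3CK, and TTR at 2.17% and 1.22%. Median depths before thinning were 52742 UMIs in CNT and 75388 in 3CK mesenchymal cells. Without thinning, the epithelial shares were 71.4% and 99.5%.

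UBD was seen in 1.41% of CNT and 30.2% (26.9 to 33.5) of 3CK epithelial cells, and unthinned in 8.61% and 72.5%. In mesenchymal cells the UBD share was 0.312% in CNT and 2.80% (0.582 to 7.98) in 3CK. At 10000 UMIs the mesenchymal shares of UBD were 0.322% and 11.3% (5.99 to 18.9), and unthinned 1.22% and 38.7%. Other epithelial genes in the same 3CK mesenchymal cells at 5000 UMIs had shares of 0% for CLDN3 (0 of 107, interval up to 3.39%) and 1.87% for VIL1. The shares were 3.74% for CLDN4, 5.61% for CDH1 and 12.1% for CLDN7. Their 3CK epithelial levels ran from 28.3 CPM for CLDN3 to 592.5 CPM for CLDN7, beside 75.1 CPM for UBD. The shares are therefore not on a like scale. By summed level in 3CK, mesenchymal cells were at 12.7% of the epithelial level for UBD and at 1.55 to 4.49% for these other genes. UBA7 was seen in 0.094% of CNT and 2.32% of 3CK epithelial cells and in 1.25% and 2.80% of mesenchymal cells, at which depth no difference between the mesenchymal shares was detectable.

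UBE2L6 was seen in 4.14% of CNT and 67.5% of 3CK epithelial cells, and in 19.4% and 71.0% of mesenchymal cells. The E2 was therefore seen in most 3CK cells of both classes at this depth. HERC6 was seen in 1.88% and 22.6% of epithelial cells, and USP18 in 1.41% and 22.9%. HERC5 was seen in 1.88% of CNT and 6.19% (4.60 to 8.12) of 3CK epithelial cells, and in 5.94% and 7.48% of mesenchymal cells, where the intervals of the 2 libraries overlap.

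The spread of the members over single cells was compared in deep barcodes. In epithelial barcodes with at least 10000 UMIs (1013 CNT and 730 3CK cells), ISG15 in the median cell was at 237.2 CPM in CNT and 4159 in 3CK. The range from the 10th to the 90th percentile was 60.5 to 762.2 CPM in CNT and 939.4 to 10548 CPM in 3CK. These ranges do not overlap, yet 21 of 1013 CNT cells (2.07%, 1.29 to 3.15) reached the lower quartile of 3CK, 2043 CPM. In mesenchymal cells 34 of 311 CNT cells (10.9%, 7.69 to 14.9) reached the lower quartile of 3CK there, 681.8 CPM.

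**Figure D4:**
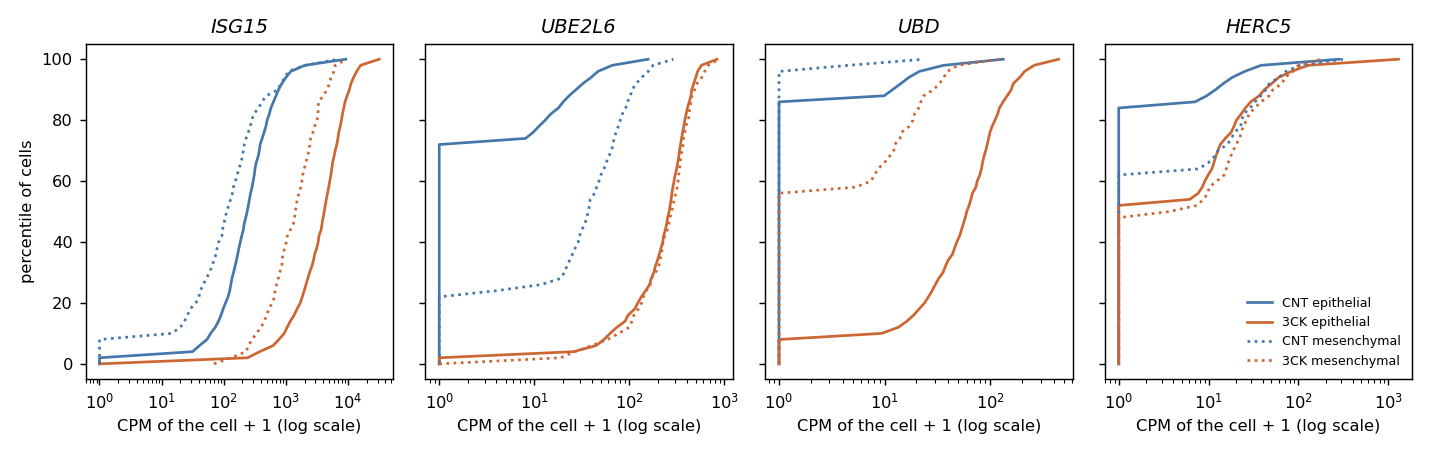
Percentiles of cells (y axis) by CPM of the cell plus 1 (x axis, log scale) for ISG15, UBE2L6, UBD and HERC5 in barcodes with at least 10000 UMIs, with solid lines for epithelial and dotted lines for mesenchymal cells of CNT and 3CK. The CNT and 3CK curves of ISG15 are shifted along their whole length, while 390 of 730 3CK epithelial cells had no HERC5 UMI.

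UBE2L6 went from a median cell of 0 CPM in CNT to 261.7 CPM in 3CK, UBD from 0 to 59.1 CPM, USP18 from 0 to 43.3 CPM and HERC6 from 0 to 33.9 CPM. The medians of HERC5 and UBA7 were 0 in both libraries. HERC5 was at 0 in 390 of the 730 3CK cells and reached 174 UMIs in another. The 37 cells with the most HERC5 UMIs held 60.7% of all HERC5 UMIs, while the corresponding 37 cells held 19.5% for ISG15, 18.9% for UBD and 15.2% for UBE2L6. The 37 deepest cells held 10.4% of all UMIs. HERC5 was thus more unevenly spread over epithelial cells than the E2 and both modifiers.

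The members were seldom all seen in the same cell at equal depth. After thinning to 10000 UMIs, 69.7% of 1013 CNT epithelial cells held UMIs of exactly 1 member and 13.9% of none. Of 730 3CK epithelial cells, 35.8% held 3 members, 25.2% held 4, 9.18% held 5 and 1.51% held 6. No cell held all 7, and UBA7, seen in 2.74% of these cells, limits that count.

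Across the 730 3CK epithelial cells, thinned to 10000 UMIs, the ISG15 level went with that of UBE2L6 (Spearman rho 0.405) and of USP18 (0.249). The correlation of ISG15 with UBD was 0.174 and with HERC6 -0.012. UBE2L6 and HERC6 had a rho of -0.125. These cells come from 1 library and the counts of all genes but ISG15 are low, so the values are descriptions, and weak ones are no finding.

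The genes whose level over these cells was most like that of ISG15, among 8995 with at least 10 CPM, were ISG20 (rho 0.649), IFI6 (0.615), HES4 (0.576), IFI27 (0.574) and IL32 (0.554). The 99th percentile of all genes was 0.350. ISG20, IFI6 and IFI27 are interferon-stimulated genes, IL32 encodes a cytokine-like protein, and HES4, a transcriptional repressor, is the neighbour of ISG15 on chromosome 1. Their annotated spans are 965 bases apart, which is not the distance between the promoters. The HES4 span reaches to position 1000172, and the ISG15 promoter window given above begins at 1013247. For UBD the most alike were IL32 (0.284), the chemokines CXCL10 (0.241) and CXCL11 (0.232), the aminopeptidase LAP3 (0.230) and the tryptophan-degrading enzyme IDO1 (0.216), with the 99th percentile at 0.138. The UBD values are low, as its counts are sparse.

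Within the epithelium, the members were compared over ranges of the hepatic gene TTR, in the barcodes with at least 10000 UMIs. ISG15 in CNT was at 376.0 CPM in 696 cells with at least 300 TTR UMIs per 10000, at 500.1 CPM in 257 cells with 30 to 300, and at 855.0 CPM in 60 cells under 30 without endocrine markers. In 3CK the same ranges held 151, 423 and 154 cells and had 5026, 5855 and 4745 CPM. The ISG15 log2 ratios were therefore 3.74, 3.55 and 2.47, all positive. Those of UBD were 4.53, 4.29 and 5.39, and those of UBE2L6 were 5.26, 4.65 and 4.01.

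HERC5 was the exception among these ranges. It was at 2.57 CPM in CNT and 9.91 in 3CK in the range highest in TTR, and at 2.91 and 24.4 CPM in the middle range. In the cells lowest in TTR it was at 22.2 CPM in CNT and 21.2 in 3CK (log2 ratio -0.07, -0.41 to 0.28). The libraries thus did not differ there beyond counting error. A single cell held 42 of the 97 CNT UMIs and another 89 of the 281 in 3CK. Without these cells, an alternative chosen after the values were seen, the levels were 13.0 and 14.7 CPM (log2 ratio 0.17, -0.27 to 0.63). HERC6 in the same cells had 14.7 CPM in CNT and 68.8 in 3CK (2.23).

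Cycling epithelial cells, with at least 5 UMIs of the cycling markers per 10000, were 37 in CNT and 26 in 3CK. HERC5 was at 12.3 CPM in these CNT cells and at 90.3 in the 3CK cells, against 3.40 and 17.7 CPM in the other epithelial cells. The log2 ratios of HERC5 were 2.87 (2.39 to 3.39) and 2.38 (2.18 to 2.58), with overlapping intervals. In the cycling cells 1 cell held 123 of the 263 3CK UMIs of HERC5. Without the cell with the most HERC5 in each library, the cycling cells were at 11.1 CPM in CNT and 49.96 in 3CK (log2 ratio 2.16, 1.61 to 2.75). UBD was at 46.0 CPM in cycling and 75.8 CPM in non-cycling 3CK epithelial cells. ISG15 was at 4567 and 5506 CPM in the same cells.

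Other partners of ISG15 had mostly small differences. Of 10 further partners and enzymes, 9 passed 1 CPM, 5 were higher in 3CK, 1 had a log2 ratio of at least 1 (6.96% of genes) and 2 of -1 or less (11.3% of genes), with a median of 0.08. The exception on the high side was TRIM25, an E3 that is itself induced by interferon, at 18.7 CPM in CNT and 78.6 in 3CK (log2 ratio 2.07). USP13, a deubiquitinase that can react with ISG15, was at 9.15 and 3.61 CPM (-1.34), and USP2 was at 4.22 and 1.84 CPM (-1.20). USP14, which had the highest mean of the list, was at 74.2 and 73.3 CPM (-0.02). IFNAR2, the receptor chain that USP18 binds, was at 29.9 and 54.9 CPM (0.88).

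Of 9 partners and enzymes of FAT10, all passed 1 CPM, 7 were higher in 3CK and 2 had a log2 ratio of at least 1 (6.96% of genes), with a median of 0.21. NUB1, which brings FAT10 and its targets to the proteasome, was at 32.0 CPM in CNT and 147.7 in 3CK (log2 ratio 2.21). UBE2Z, the E2 of FAT10, was at 60.8 and 134.5 CPM (1.15), and UBA6, its E1, at 39.8 and 64.7 CPM (0.70). The autophagy receptor SQSTM1 had the highest mean, at 231.3 and 356.2 CPM (0.62). HDAC6, which carries FAT10-marked proteins to aggresomes, was lowest, at 10.0 and 7.44 CPM (-0.43).

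Related ligases and other modifiers were used to see how far the difference reached. Of the other HERC ligases and the USP18 copy, 4 of 5 passed 1 CPM and none had a log2 ratio of at least 1 (6.96% of genes). For 4 genes, none is near that share. HERC4 was the highest at 57.5 and 92.4 CPM (0.69), and HERC1 the lowest at 39.9 and 34.6 CPM (-0.21). Ubiquitin and its enzymes (9 genes) had a median log2 ratio of 0.12, the NEDD8 system (6 genes) 0.11, the SUMO system (7 genes) 0.19, the UFM1 and URM1 systems (7 genes) -0.21 and the ATG8 and ATG12 systems (8 genes) 0.04. None of these genes had a log2 ratio of at least 1 (6.96% of all genes) or of -1 or less (11.3% of all genes). RPS27A, a ubiquitin-ribosomal fusion gene and the gene of the ubiquitin list with the highest mean, was at 3240 and 2600 CPM (-0.32).

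**Figure D5:**
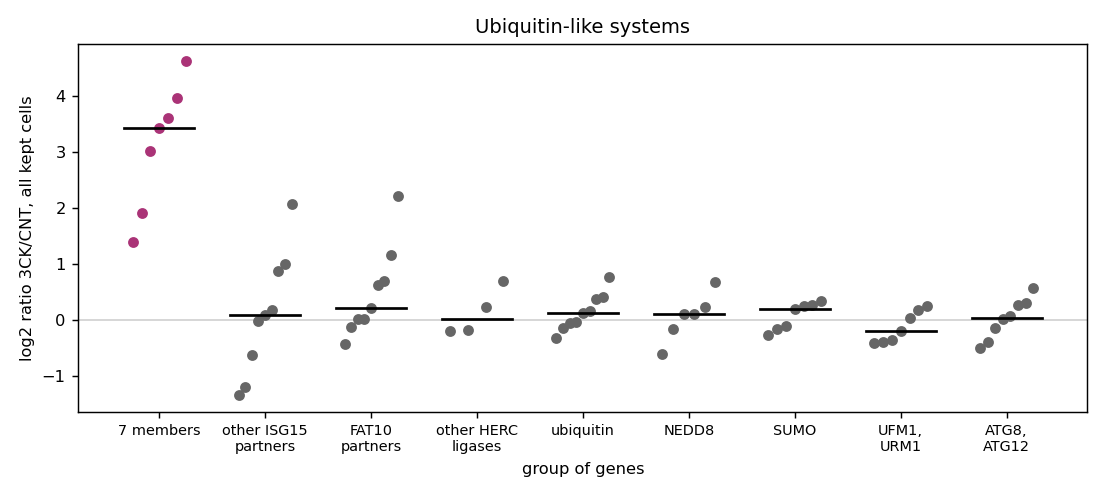
Log2 ratio of 3CK over CNT in all kept cells for the 7 members and for genes of related systems that passed 1 CPM; each point is a gene and each bar the median of its group. The members lie between 1.38 and 4.62, and the medians of the other groups between -0.21 and 0.21.

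The E1 and E2 of the modifiers can be read side by side from the same lists. Among E1 genes, UBA7 had a log2 ratio of 1.38, UBA6 0.70, UBA1 of ubiquitin -0.04, UBA3 of NEDD8 0.11 and UBA2 of SUMO -0.27. Among E2 genes, UBE2L6 had 3.95, UBE2Z 1.15, UBE2L3, its close relative in the ubiquitin system, 0.41, UBE2M of NEDD8 0.24 and UFC1 of UFM1 -0.37. Of the enzymes named, the members had the highest value in each series in all kept cells, followed in each by the enzyme of FAT10. All-cell values mix the classes: UBA7 was at 3.29 in epithelial and 0.21 in mesenchymal cells, and UBE2L6 at 4.95 and 2.58.

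Transcripts of interferons themselves were scarce. Of 9 interferon genes, 8 had at most 3 UMIs in either library, among them IFNB1 with 0 in CNT and 1 in 3CK and IFNG with 3 and 2, and IFNA1 and IFNL3 were at 0 in both. The limit of 3 UMIs that a count of 0 allows is 0.0295 CPM for CNT and 0.0327 CPM for 3CK. IFNL1, a type III interferon, had 3 UMIs in CNT and 93 in 3CK, the latter in 19 cells, with at most 23 UMIs in a cell. Of the 93, 62 were in 16 epithelial cells and 0 in the 124 mesenchymal cells. IFN-γ was among the cytokines added as protein, which these counts do not show.

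Genes of interferon signalling were higher along with the members. All 8 of the list passed 1 CPM and were higher in 3CK, 5 of them with a log2 ratio of at least 1 (6.96% of genes), and the median was 1.55. In mesenchymal cells 6 of the 8 were higher, 4 had a log2 ratio of at least 1 (6.05% of genes) and the median was 0.73. The receptor chain IFNLR1 was at -1.35 there, from 22 and 4 UMIs, with an interval that spanned 0 (-3.35 to 0.21). IRF1, a transcription factor induced by IFN-γ, was at 23.3 CPM in CNT and 375.9 in 3CK (4.01). IFNAR1, a chain of the type I interferon receptor, was lowest at 34.6 and 37.2 CPM (0.10).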

How the data were processed

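Counts were deposited by the authors as 1 UMI matrix per library, not normalised. They were made with Cell Ranger 7.1.0 on GRCh38, per the submitters' processing notes. Which annotation and strand setting were used is not given in the sources used here. Kept barcodes had at least 500 genes and at most 20% mitochondrial UMIs, which removed 412 CNT and 52 3CK barcodes for genes and 306 and 175 more for mitochondrial share. The highest Scrublet scores (scanpy 1.11.5) were removed at 0.8% per 1000 barcodes, 52 and 16 barcodes. UMIs were summed per library and class and scaled to CPM by the total. A value of 0 was set to a floor of 3 UMIs per library, and no ratio was formed where both had 3 or fewer. Intervals were exact Poisson for sums, exact binomial for ratios and Clopper-Pearson for shares, at the 95% level. Intervals of differences between ratios came from 2 such intervals. The interval method was tested only on simulated independent Poisson counts, which leave out the uneven spread of UMIs over cells. Python was 3.11.15, numpy 2.4.6 and scipy 1.17.1, and edgeR 4.0.16 gave TMM factors for an alternative only.

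Named were the 7 members, of each gene list the genes of highest mean, largest and smallest log2 ratio, and for ISG15 and UBD the 5 genes with the highest correlation. Other list genes were named after their values were seen. Some genes that this rule names are not reported here. The members and lists were chosen with earlier results of these data known. Gene IDs of all 7 members matched GENCODE 44. Classes were set by the marker limits given in the results, and no comparison had replicates, so p-values were not computed.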

Additional observations from a re-analysis of the deposited data

Results flagged for a closer look

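HERC5 had a log2 ratio of -0.067 in the epithelial cells with under 30 TTR UMIs per 10000 and no endocrine markers, whereas it was above 0 in 8 of the 9 ranges of cells that gave a ratio. Without the cell with the most HERC5 in each library it was 0.17 (-0.27 to 0.63). The difference between the ranges was not tested.

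The barcodes left out by the filters, 770 in CNT and 243 in 3CK, carried the same genes at higher levels in 3CK. ISG15 was at 128.9 CPM in those of CNT and 3282 CPM in those of 3CK. UBD was at 0.861 CPM, from 3 UMIs, and 42.9 CPM, and UBE2L6 at 15.2 and 193.3 CPM. HERC5 was at 7.18 and 23.8 CPM, HERC6 at 7.75 and 53.2 CPM, and USP18 at 3.73 and 47.9 CPM. UBA7, at 2.01 and 3.96 CPM, had intervals that overlap.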

How the results depend on the processing

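With 1 library per group, no replicate could be left out. No paired analysis was possible because each group has 1 library. Alternatives were to drop the cell filter, to require 1000 genes with at most 10% mitochondrial UMIs, to keep doublets, to remove the top 5% of doublet scores, and to use TMM factors, a total without mitochondrial, ribosomal and the 50 most abundant genes, equal cell weight, barcodes of at least 10000 UMIs only, and class limits doubled or halved. Medians were held against the counting interval of the middle member. Counts were held to a wide limit, under which a change from 5 to 7 members did not register as a move. Of 85 alternative values of the medians and counts, 79 stayed within these limits and 6, all medians, moved more. The figure of 79 is therefore no measure of stability for the counts. TMM factors gave a mesenchymal median of 2.76. Equal cell weight gave medians of 3.65 in all cells, 2.87 in mesenchymal cells and 0.88 for the class difference. Doubled class limits gave 3.64 in epithelial cells and 2.15 for the class difference. Of 333 values for single members, 237 kept their place, 95 moved and 1 reversed, the USP18 class difference of -0.29 with equal cell weight. Shares of cells tend to rise with depth, so their moves at 10000 UMIs or without thinning are no measure of stability. An alternative added after the values were seen, leaving out the cell with the most HERC5 in each library, gave HERC5 log2 ratios of 0.17 in the cells lowest in TTR and 2.16 in cycling epithelial cells. TMM moved the median of all genes by 0.09 in all cells and 0.18 in mesenchymal cells, and the reduced total by -0.10 and -0.04. The number of members with a log2 ratio of at least 1 was 6 to 7 in all cells, 7 in epithelial cells under each alternative and 5 to 7 in mesenchymal cells. Depth limits UBA7, with 19 UMIs in CNT epithelial cells, and UBD, with 7 UMIs in CNT mesenchymal cells.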

Other observations

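The 37 3CK epithelial cells with the most HERC5 UMIs, of 730 with at least 10000 UMIs, were compared with the other 693. The cells were picked for HERC5, and the genes after their values were seen, so the values are a description. The 10 genes of largest ratio, under limits on level and on the number of cells, were OASL, RSAD2, IFIT2, PXK, ZC3HAV1, PMAIP1, IFIT1, TYSND1, AC011447.3 and C2orf88. OASL, an antiviral gene of the oligoadenylate synthetase family, was at 291.4 CPM in the 37 cells and 24.2 CPM in the others, RSAD2 at 363.9 and 72.1 CPM, and PXK at 36.8 and 8.63 CPM. A single cell held 11.8 to 36.0% of the UMIs of each of the 10 genes in the 37 cells, 24.5% for OASL. The IFNL1 transcript was in 6 of the 37 cells with 40 UMIs and in 8 of the 693 with 19 UMIs. ISG15 was at 9433 and 5205 CPM, HERC6 at 84.3 and 42.7 CPM, and UBE2L6 at 282.6 and 286.3 CPM. Median depth was 114980 and 92933 UMIs, and its part in these values was not tested.

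The 21 CNT epithelial cells whose ISG15 reached the lower quartile of 3CK were also picked after their values were seen. In these cells UBE2L6 was at 36.5 CPM against 8.44 in the other 992, HERC5 at 30.6 against 3.10, HERC6 at 14.5 against 4.24 and USP18 at 13.4 against 5.42. IFI6, an interferon-stimulated gene, was at 698.9 against 54.2 CPM. UBD was at 2.68 CPM (0.871 to 6.26) against 3.28 (2.88 to 3.73). Untreated cells high in ISG15 thus carried more of 4 other members and of IFI6, and no difference in UBD was detectable from 5 UMIs. The HERC5 value of the 21 cells rests on 57 UMIs. A single CNT epithelial cell held 42 HERC5 UMIs, and whether it was among the 21 was not examined. Median depth was 85770 UMIs against 69371, and TTR was at 39350 against 65994.5 CPM. The part of depth and TTR in these values was not tested.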
